A study of Mus musculus with 4 samples.

Results

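The genes described here encode the subunits of oxidative phosphorylation, the mitochondrial machinery that turns the energy of NADH and succinate into ATP, together with some of the factors that build it. They were taken as every gene with 1 symbol in the platform annotation that begins with Nduf, Uqcr, Uqc, Cox4 to Cox8 or Atp5, or that is one of the 4 succinate dehydrogenase genes, Cyc1 or Cycs. Where a gene had several probe sets, it was read from the brightest on average. The rule gave 94 genes out of 19938 genes on the arrays, and it used no comparison between groups. By complex there were 41 genes of complex I, 4 of complex II, 12 of complex III, 1 of cytochrome c, 19 of complex IV and 17 of the ATP synthase.

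Complex I takes electrons from NADH and complex II takes them from succinate. Both pass them through quinone to complex III, from which cytochrome c carries them to complex IV, where oxygen is reduced. Complexes I, III and IV pump protons across the inner membrane, and the ATP synthase uses the return flow to make ATP. Stromal cells that support blood formation and the blood cells themselves are known to differ in how much they rely on this pathway and on glycolysis.

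Expression was measured in nonhematopoietic marrow cells of C57BL/6 mice whose nestin promoter drives a green fluorescent protein (Nes-gfp). The sorted fraction lacked CD45, CD31 and Ter119 and carried the reporter, and it was collected 10 weeks after a marrow transplant into the Nes-gfp hosts. In the MPN group (myeloproliferative neoplasm, n = 3 mice) the transplanted cells were Mx1-cre;JAK2-V617F, that is, they carried the mutant kinase together with a Cre recombinase driven by the interferon-inducible Mx1 promoter. The control group was 1 mouse that received control cells, and the labels say no more of those cells. The genotype field of the MPN samples lists Nes-gfp;Mx1-cre;JAK2-V617F and that of the control Nes-gfp, so the alleles of graft and host are listed together. All 4 mice shared the reporter, the strain and the transplant. No source used here gives their ages.

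Several measured facts of these arrays bear on every value below. Values are log2 levels as deposited. On the MPN arrays the mean of 5 leukocyte markers was 9.36 to 10.14, against 6.75 on the control array, and the mean of 9 neutrophil markers was 10.80 to 11.34 against 8.23. Ptprc, the gene of CD45, was above background on all 4 arrays although the sort selected against its protein. The mean of 5 stromal markers was 6.16 to 7.03 against 10.33, and that of 4 proliferation markers was 7.81 to 9.56 against 6.82. The reporter's own gene, Nes, was under the background limit, defined below, in both groups. Xist was at 8.37 to 9.31 in the MPN mice and 3.30 in the control, while the Y-linked Kdm5d was at 4.14 to 4.16 against 7.72. The sex of the measured cells, their make-up and the group therefore cannot be told apart. In bulk RNA, fewer cells of a type and less RNA per cell cannot be told apart either. The part of cell make-up in the values of these genes was not tested.

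Nuclear genes for the respiratory chain are scattered over the chromosomes, and nuclear respiratory factor 1 (NRF1) is one of the factors long known to bind their promoters. The promoter windows of the RefSeq table (GRCm38.p6) covered 77 of the 94 genes, and the 250 bases before each start were searched on both strands for the NRF1 consensus, a palindromic motif with 1 free base. A match stood in 14 of these 77 genes (18.2%) and in 4.23% of the 27025 genes of the table. Of the 14 genes, 7 had all 3 MPN arrays above the control, 1 had all of them below, and 6 were mixed. Over all genes on the arrays, 46.8% had all 3 above and 21.1% all 3 below. The log2 differences of the 14 genes ran from -1.02 to 1.64 with a median of 0.26. Matches to ACTTCCGG, a sequence of the ETS factor class, stood in 3 of the 77 genes (3.90%, against 3.23% of all). Those 3 were Atp5h, Uqcr11 and Uqcrh. The YY1 motif stood in 1 gene, Atp5j (1.30%, against 0.359% of all), and TCAAGGTCA, a sequence of estrogen-related receptors, in 1 gene, Atp5g3 (1.30%, against 0.422%). A match is a description of the letters and not a measured binding site. The stretches below are of 100 bases each, 5′ to 3′ on the gene's strand, with the NRF1 match in capitals. They show 4 genes that were higher on every MPN array and the one motif gene that was lower on every MPN array (Ndufaf4), since both directions occur beside nearly the same letters.
Ndufs6, chr13:73328483-73328582, minus strand: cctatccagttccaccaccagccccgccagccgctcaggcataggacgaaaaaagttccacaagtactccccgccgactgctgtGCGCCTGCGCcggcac
Atp5k, chr5:108434400-108434499, minus strand: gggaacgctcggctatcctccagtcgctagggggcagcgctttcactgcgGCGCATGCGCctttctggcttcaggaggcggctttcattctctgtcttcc
Ndufa11, chr17:56717657-56717756, plus strand: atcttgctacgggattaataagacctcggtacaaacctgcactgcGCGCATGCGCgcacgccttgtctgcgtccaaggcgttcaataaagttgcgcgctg
Atp5g2, chr15:102671048-102671147, minus strand: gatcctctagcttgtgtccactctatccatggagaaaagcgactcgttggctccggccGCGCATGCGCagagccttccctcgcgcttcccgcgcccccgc
Ndufaf4, chr4:24897925-24898024, plus strand: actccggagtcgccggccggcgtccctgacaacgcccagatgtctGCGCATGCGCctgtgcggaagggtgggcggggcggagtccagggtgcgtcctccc
In these windows the match began 16 bases before the start in Ndufs6, 50 in Atp5k, 60 in Ndufa11, 42 in Atp5g2 and 113 in Ndufaf4.

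As a whole the set differed little between the groups, and its members went different ways. The median log2 difference, MPN mean minus control, was 0.22 over the 94 genes, against 0.18 over all genes and 0.08 over the 11964 genes above background. Background was set at a log2 value of 5.21, the 95th percentile of olfactory and vomeronasal receptor genes, and 91 members lay above it in at least one group. At an adjusted p of 0.05 in limma, 0 of the 94 genes and 0% of all genes passed, so no member is said to have risen or fallen. The smallest adjusted p of a member was 0.155, and at an unadjusted p under 0.05 there were 12 members higher and 4 lower. Over all genes the same rule took 3.97% higher and 8.63% lower. All 3 MPN arrays lay above the control in 41 members, a share of 43.6% against 46.8% of all genes and 36.9% of genes above background. They lay below it in 8 members, which is 8.51% against 21.1% and 29.9%. With MPN mouse 3 left out, 24 of the 94 lay below it on the remaining MPN arrays, against 25.6% of all genes. The members' share of genes higher on every array was thus below one reference and above the other. At least 2-fold higher on every MPN array were 2 members (1.13% of all genes), Cycs and Cox7a2, and at least 2-fold lower were 2 (5.78% of all genes), Ndufs1 and Uqcc1.

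**Figure D1:**
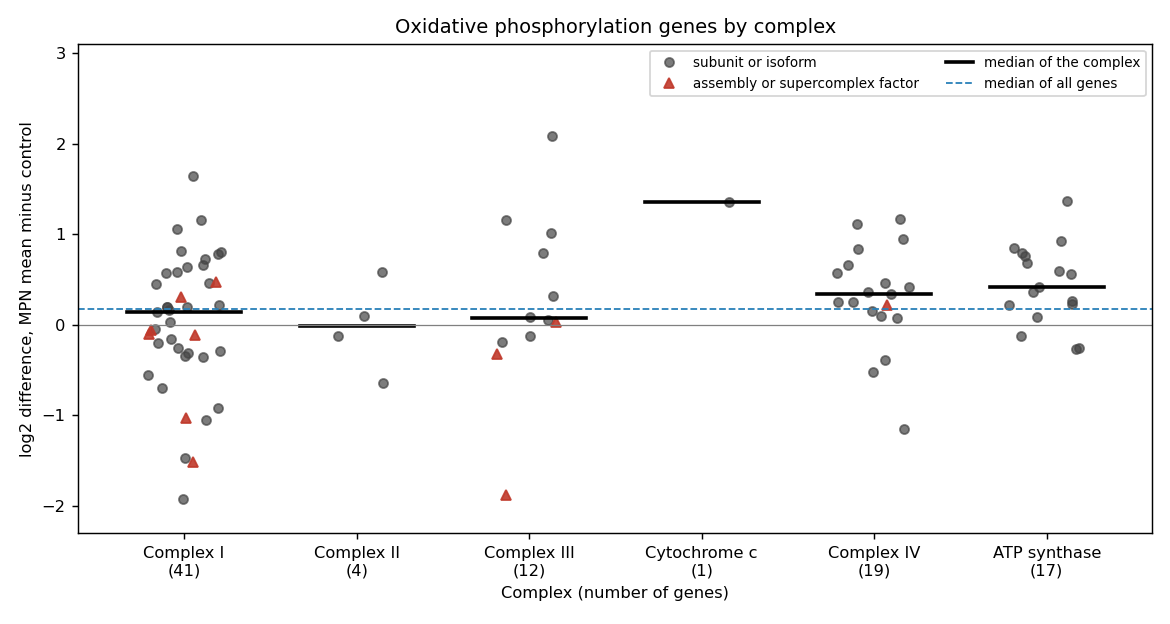
Each point is 1 gene, placed by its log2 difference between the mean of the 3 MPN arrays and the control array (vertical axis) and by its complex (horizontal axis, with gene numbers). The black bars are medians, at 0.14 for complex I (0.01 without MPN mouse 3), 0.34 for complex IV and 0.42 for the ATP synthase, and the dashed line is the median of all genes at 0.18. Red triangles are assembly or supercomplex factors.

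The median was not the same for each complex. It was 0.42 for the ATP synthase and 0.34 for complex IV, and it was 0.14 for complex I, 0.07 for complex III and -0.01 for complex II. Without MPN mouse 3 the median of complex I was 0.01. That of complex III came to 0.128 when the same mouse was left out and to 0.375 when MPN mouse 2 was. In the ATP synthase 12 of 17 genes (70.6%) and in complex IV 12 of 19 (63.2%) lay above the control on every MPN array. In complex I 11 of 41 did (26.8%), and 25 had MPN arrays on both sides of the control. The same share was 46.8% of all genes and 36.9% of genes above background. These medians describe the genes of 4 arrays, and the differences between complexes were not tested. The sign depended on scaling for the whole set and for complexes I, II and III. Complex II turned to 0.18 after repeated quantile normalisation, and the others turned when the arrays were aligned on the receptor genes. That alignment moved the median of all genes to -0.08, the 94 members to -0.04, complex I to -0.12 and complex III to -0.19. Under it complex IV stayed above 0 at 0.08 and the ATP synthase at 0.16.

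**Figure D2:**
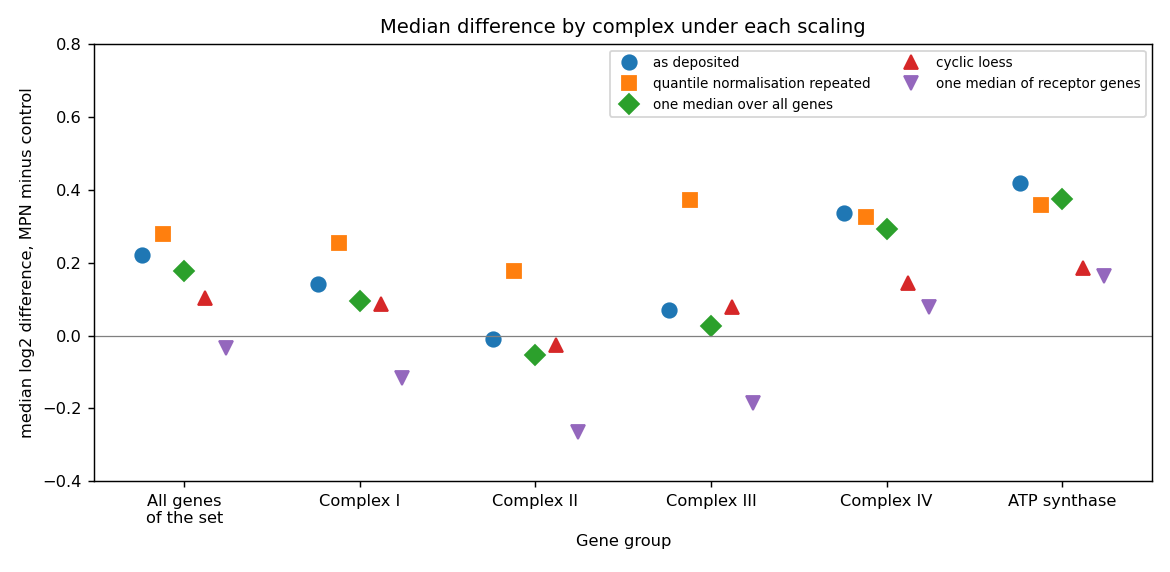
Median log2 difference, MPN minus control (vertical axis), of all 94 genes and of each complex (horizontal axis) under 5 scalings of the arrays (symbols). The ATP synthase and complex IV are above 0 under all 5. Complex II is above 0 only after repeated quantile normalisation, at 0.18. The other groups fall below 0 only when receptor genes are aligned, to -0.12 for complex I.

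The 4 genes at least 2-fold apart on every MPN array are given first. Cycs encodes cytochrome c, the mobile carrier between complexes III and IV. It was at 10.41, 11.00 and 10.38 in MPN mice 1, 2 and 3, the order used below, against 9.24 in the control. The difference was 1.35 (SE 0.34), or 2.55-fold, with adjusted p = 0.30. A second Cycs probe set gave 1.43, but the last of its 3 probe sets gave -1.48, with 4.56 against 6.04. Which of them reads the Cycs gene itself was not tested, so the direction for Cycs is uncertain. With probe sets averaged, 1 gene instead of 2 was at least 2-fold higher on every MPN array.

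Cox7a2, a small subunit of complex IV found in most tissues, was at 9.06, 9.03 and 9.48 against 8.03. Its difference was 1.16 (SE 0.27, adjusted p = 0.265). Ndufs1 carries iron-sulfur clusters in the NADH-oxidising arm of complex I and is its largest subunit. It was at 6.10, 6.73 and 6.35 against 7.86, a difference of -1.47 (SE 0.32, adjusted p = 0.249), or 2.77-fold lower. Uqcc1 helps to make cytochrome b of complex III. It was at 3.81, 4.32 and 4.13 against 5.97, a difference of -1.88 (SE 0.27) with the smallest adjusted p of the set, 0.155. All of its MPN values were under the background limit, so the size of that difference is uncertain.

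**Figure D3:**
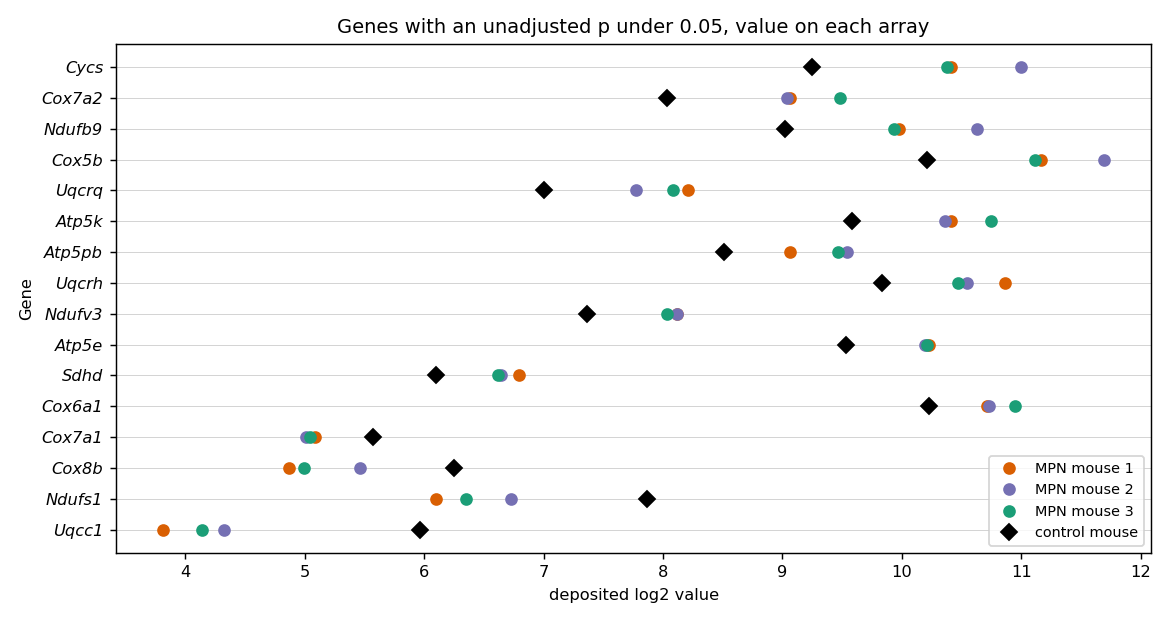
Deposited log2 values (horizontal axis) of the 16 members with an unadjusted p under 0.05, one gene per line, on each MPN array (circles) and on the control array (diamonds). The control lies to the left of all 3 MPN arrays for 12 genes and to the right for Cox7a1, Cox8b, Ndufs1 and Uqcc1. No adjusted p was below 0.155.

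Complex I is the largest of the complexes, with a core that moves electrons and protons and a shell of accessory subunits around it. Of its 6 measured core genes, 3 had a positive mean difference and 3 a negative one. Ndufv1, which binds NADH and the flavin, was at 6.71, 7.12 and 6.73 against 6.82, which places the control within the MPN values. Its sign turned under either shift of the arrays to one median. Ndufs3, a core subunit near the quinone site and chosen after its values were seen, was at 6.63, 7.44 and 7.68 against 8.17, below the control on each MPN array. Ndufs8, an iron-sulfur subunit also chosen after its values were seen, was at 7.60, 8.41 and 8.74 against 7.48, above the control on each.

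The 28 accessory genes of complex I had a median of 0.20, with 10 above the control on every MPN array (35.7%) and 1 below (3.57%). Over all genes these shares were 46.8% and 21.1%, and over genes above background 36.9% and 29.9%. Ndufs6, a subunit that binds zinc, was at 10.81, 9.61 and 9.01 against 8.16. Its mean difference of 1.64 was the largest of the complex, but the MPN mice spread over 1.80 and the SE was 0.83. Ndufb9 was at 9.98, 10.63 and 9.93 against 9.02, and Ndufa2 at 9.78, 10.46 and 10.56 against 9.20. Ndufa11, a membrane subunit, was at 7.86, 8.02 and 8.71 against 7.38. Its less bright probe set gave a difference of 0.34, against 0.82 for the one used. These 4 genes were named for the largest positive mean differences of complex I, and none had an MPN value as low as the control. The same held for 46.8% of all genes. Ndufv3, outside the naming rule, was at 8.12, 8.12 and 8.03 against 7.36, a difference of 0.72. Its SD of 0.05 is that of the MPN mice only, and the single control has no spread to set beside it.

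In some other accessory genes of complex I the 3 MPN mice lay far apart. Ndufb6 was at 4.12, 6.98 and 10.29 against 9.05. MPN mice 1 and 2 thus lay below the control and MPN mouse 3 above it. The mean difference of Ndufb6, -1.92, had an SE of 2.74. Ndufa9, which sits near the quinone site, was at 6.30, 7.16 and 8.21 against 8.28, with MPN mouse 3 close to the control. Ndufc2 (7.23, 10.44 and 10.81 against 9.78) and Ndufs4 (7.40, 9.75 and 10.64 against 9.60) were low in MPN mouse 1 only. These last 2 were chosen after their values were seen. Ndufs4 completes the NADH-oxidising arm late in assembly, and its loss in mice is known as a model of mitochondrial disease.

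Among all 41 genes of complex I, MPN mouse 3 held the highest MPN value in 23 (56.1%), where it did so in 28.1% of all genes above background. The median difference from the control was 0.67 in MPN mouse 3, -0.12 in MPN mouse 1 and 0 in MPN mouse 2. In the ATP synthase the medians of the 3 mice were 0.26, 0.52 and 0.30, and MPN mouse 3 was highest in 6 of 17 genes. The median SD among MPN mice was 0.62 for complex I, 0.29 for complex IV and 0.33 for the ATP synthase, against 0.29 for all genes above background. Members of a complex share the arrays and are not replicates, so these values describe the 3 mice. In MPN mice 1, 2 and 3 the means of 4 macrophage markers were 4.58, 4.74 and 5.27, against 4.52 in the control. Only Cd68, at 6.11, 6.56 and 7.75 against 6.51, was above background in either group. Csf1r was at 4.55, 5.10 and 5.84 against 4.55. Adgre1 (3.69, 3.49 and 3.67) and Mrc1 (3.98, 3.80 and 3.82) were under background on all 4 arrays and highest in MPN mouse 1. Leukocyte markers were at 9.97, 9.36 and 10.14 and neutrophil markers at 11.26, 10.80 and 11.34, both highest in MPN mouse 3. Stromal markers were at 7.03, 6.16 and 6.67, and proliferation markers at 7.81, 9.56 and 9.36. Their part in the difference between mice was not tested.

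**Figure D4:**
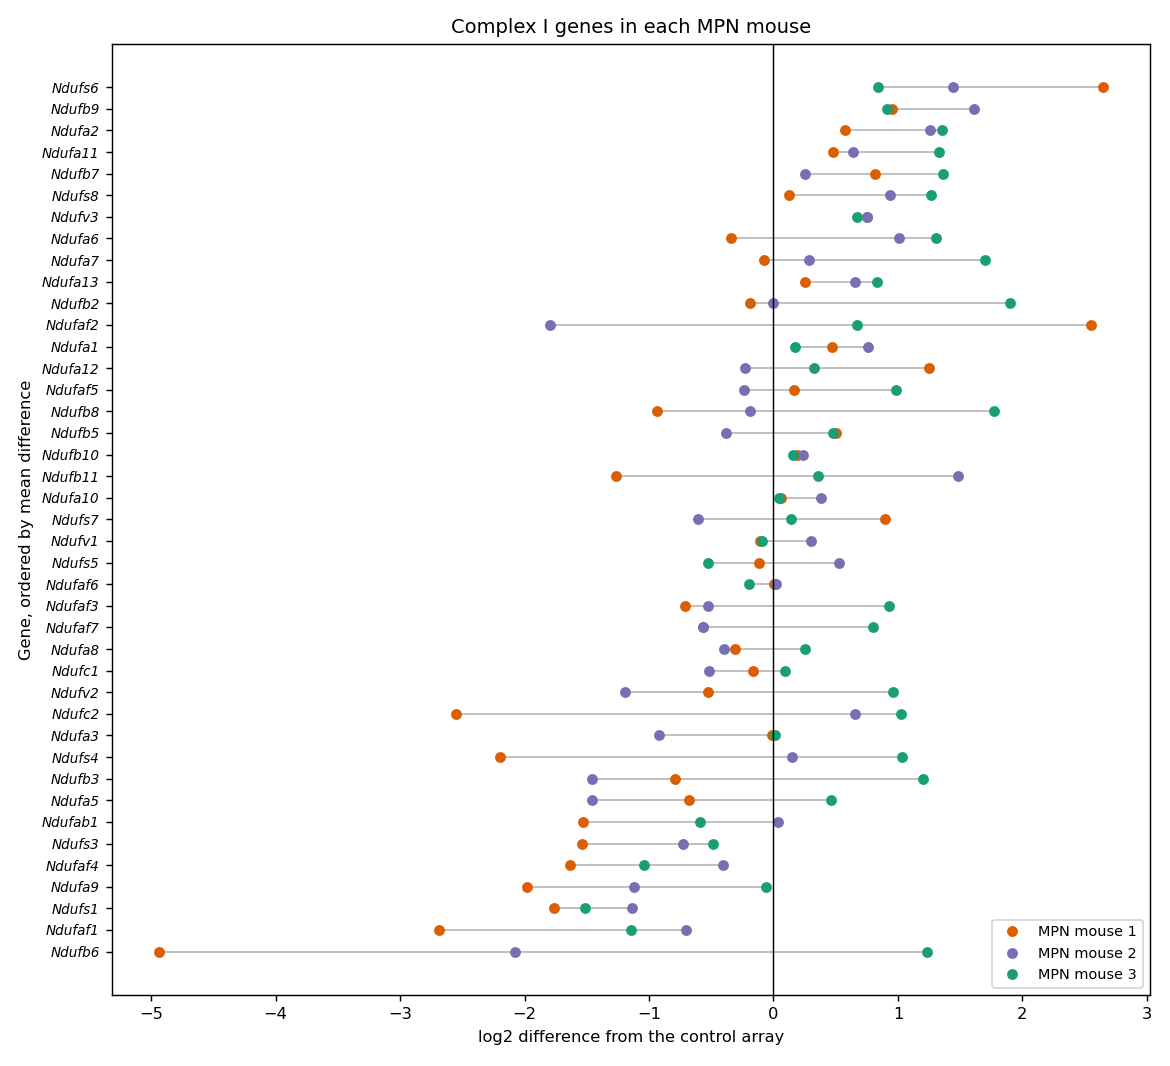
Log2 difference of each MPN mouse from the control array (horizontal axis) for the 41 complex I genes, ordered by mean difference, with a grey line spanning the 3 mice. MPN mouse 3 (green) is the rightmost point in 23 of the 41 genes, and Ndufb6 spans 6.17 between mice.

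Factors that assemble complex I had arrays on both sides of the control in most cases. Of 7 factors, 0 lay above it on every MPN array, against 46.8% of all genes and 36.9% of genes above background. Below it on every MPN array were 2 factors (28.6%, against 21.1% and 29.9%). Their median was -0.10 over the mean differences, and 0.67 in MPN mouse 3, where 4 of the 7 lay above the control. In this class 2 factors (Ndufaf5 and Ndufaf6) were under background in both groups. Ndufaf1, which acts on the membrane arm, was at 5.19, 7.18 and 6.74 against 7.88. Ndufaf4 was at 5.03, 6.26 and 5.62 against 6.66, and Ndufaf2, which joins late in assembly, at 11.06, 6.71 and 9.18 against 8.51. Ndufaf1 and Ndufaf4 lay below the control on each MPN array, and Ndufaf2 spanned 4.35 between mice. Ndufaf2 and Ndufaf4 were chosen after their values were seen. All 11 assembly or supercomplex factors of the set together had a median of -0.10, against 0.26 for the 77 subunits left without them and without muscle and testis isoforms.

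Complex II links the citric acid cycle to the chain. Its flavoprotein gene Sdha was at 7.21, 8.22 and 8.74 against 8.70, and the iron-sulfur gene Sdhb at 6.32, 5.46 and 6.88 against 6.12. The membrane anchor gene Sdhc was at 7.42, 8.02 and 8.59 against 8.13. In these 3 genes the control lay within the MPN values. The other anchor gene, Sdhd, was at 6.79, 6.64 and 6.61 against 6.10, above the control on each MPN array, with a difference of 0.58 (SE 0.17, adjusted p = 0.345).

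In complex III 4 of 12 genes (33.3%) lay above the control on every MPN array and 1 (8.33%) below it. Over all genes these shares were 46.8% and 21.1%, and over genes above background 36.9% and 29.9%. Cyc1, cytochrome c1, was at 6.81, 6.58 and 7.54 against 7.10, and the Rieske protein gene Uqcrfs1 at 7.06, 7.76 and 7.22 against 7.27. The control lay within the MPN values of both. Of the 7 accessory genes, 4 lay above the control on every MPN array, and Uqcrb, Uqcrc1 and Uqcrc2 were mixed. Those 4 were 57.1%, against 46.8% of all genes and 36.9% of genes above background. Uqcrq was at 8.21, 7.77 and 8.08 against 7.01 (difference 1.02, SE 0.25, adjusted p = 0.287). Uqcrh, the hinge protein at the cytochrome c1 side, was at 10.86, 10.55 and 10.47 against 9.83, and Uqcr10 at 7.96, 9.43 and 8.49 against 7.47.

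Uqcr11 had the largest mean difference of all 94 genes, 2.08 or 4.24-fold, but it was at 7.30, 10.92 and 8.62 against 6.86, and the SE was 1.63. MPN mouse 2 thus carried most of it, although the other two also lay above the control. Uqcrc2, a core protein of the matrix side, was at 8.79, 5.99 and 8.50 against 7.95, where MPN mouse 2 was the low one. Uqcc2, another factor for cytochrome b, was at 5.29, 6.24 and 7.60 against 6.70, and its 2 probe sets differed in sign (-0.32 and 0.19).

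Complex IV is built from subunits that often come as a common isoform and a tissue-restricted one. The 10 common isoforms had a median of 0.52, with 7 above the control on every MPN array (70%) and 0 below. Over all genes these shares were 46.8% and 21.1%, and over genes above background 36.9% and 29.9%. Besides Cox7a2, Cox5b was at 11.17, 11.70 and 11.11 against 10.21 (difference 1.12, SE 0.32, adjusted p = 0.345). Cox4i1, a subunit that regulates the enzyme by ATP binding, was at 10.60, 9.96 and 10.38 against 9.37. Cox6a1 was at 10.71, 10.73 and 10.95 against 10.22, Cox6b1 at 12.01, 12.34 and 12.37 against 11.77, and Cox7b at 11.12, 11.48 and 10.61 against 10.24. No MPN value of these genes was as low as the control, which also held for 46.8% of all genes. Cox7a2, Cox5b, Cox4i1 and Cox7b were named for the size of their mean differences. Cox8a (7.48, 8.17 and 7.58 against 7.49) had MPN values on both sides, and the sign of its mean turned with receptor genes aligned. Ndufa4, first named for complex I and now counted in complex IV, was at 11.54, 8.90 and 11.49 against 11.04. Without MPN mouse 2, the low one, its difference was 0.48 instead of -0.39.

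Of the 8 tissue-restricted isoforms, 4 lay above the control on every MPN array (Cox6a2, Cox6b2, Cox8c and Ndufa4l2), 2 lay below it (Cox8b and Cox7a1) and 2 were mixed. Over all genes 46.8% lay above on every MPN array and 21.1% below. Cox8b and Cox7a1 are the isoforms of heart and skeletal muscle, and brown fat also uses them. Cox8b was at 4.86, 5.46 and 4.99 against 6.25 (difference -1.15, SE 0.31, adjusted p = 0.327). Cox7a1 was at 5.09, 5.01 and 5.05 against 5.57 (difference -0.52, SE 0.15, adjusted p = 0.345). Both lay below the control on each MPN array, but their MPN means were under the background limit. Cox6a2, the other muscle isoform, was at 6.63, 7.07 and 6.31 against 6.01, above the control on each. Beside these genes, the mean of 5 adipocyte markers was 5.12 to 5.86 against 6.36, and its members went different ways. Adipoq was at 6.61, 4.34 and 6.04 against 10.42, Plin1 at 6.69, 6.13 and 6.06 against 5.99, and Fabp4 at 7.67, 7.60 and 5.53 against 7.54. Ucp1 and Cidea, genes of brown fat, were under background on all 4 arrays. The part of fat-lineage cells in these values was not tested.

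Cox4i2 and Ndufa4l2 are isoforms known from lung, low oxygen and pericytes. Cox4i2 was at 5.42, 5.74 and 5.31 against 5.41, with the control within the MPN values. Ndufa4l2 was at 5.61, 5.98 and 5.40 against 5.25, just above background in both groups. Of the testis isoforms, Cox6b2 was at 7.18, 6.14 and 6.14 against 6.12, Cox8c at 5.29, 5.28 and 5.09 against 4.96, and Cox7b2 was under background throughout, from 2.99 to 3.49. Cox7a2l, counted here among the assembly or supercomplex factors, was at 9.80, 9.47 and 9.35 against 9.32. Its difference of 0.22 turned to -0.03 when receptor genes were aligned.

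**Figure D5:**
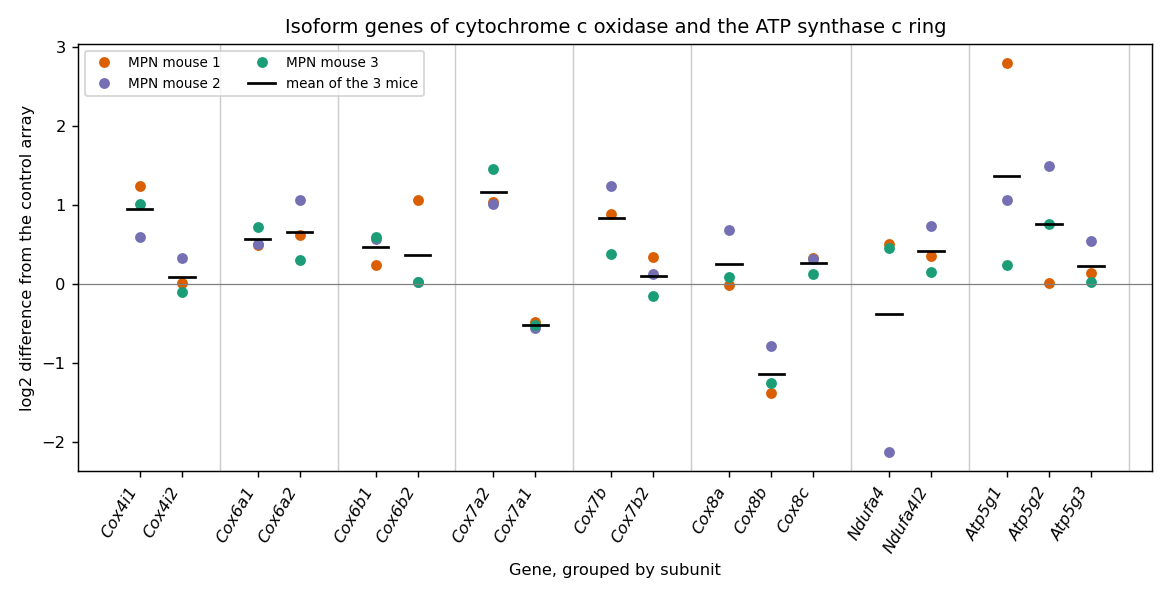
Log2 difference of each MPN mouse from the control array (vertical axis) for isoform genes grouped by subunit (horizontal axis), with the mean as a bar. Cox7a2 stands at 1.16 beside Cox7a1 at -0.52, and Cox8a at 0.25 beside Cox8b at -1.15.

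In the ATP synthase no gene lay below the control on every MPN array, where 21.1% of all genes did. The F1 head, where ATP is made, has Atp5a1 and Atp5b as its alpha and beta chains. Atp5b was at 10.46, 10.84 and 10.57 against 10.36, a difference of 0.26 that turned to -0.02 after repeated quantile normalisation, and Atp5a1 was at 8.45, 9.33 and 9.31 against 9.29. Atp5c1, the gamma chain that turns inside the head, was at 9.61, 9.70 and 10.78 against 10.29. Atp5e, the small epsilon chain and a member chosen after its values were seen, was at 10.22, 10.20 and 10.21 against 9.53. Its difference was 0.68 (SE 0.15, adjusted p = 0.248) with an SD of 0.01 among the MPN mice.

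The c ring that turns in the membrane is encoded by a trio of genes with the same mature product. Atp5g1 was at 9.79, 8.06 and 7.24 against 7.00, Atp5g2 at 8.48, 9.96 and 9.23 against 8.47, and Atp5g3 at 9.75, 10.15 and 9.64 against 9.62. All 3 genes lay above the control on every MPN array as deposited, although the mean difference of Atp5g3 turned negative with receptor genes aligned. The size came from different mice, MPN mouse 1 being highest for Atp5g1 and MPN mouse 2 for the other two.

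In the stalk and membrane part, Atp5pb, the b subunit that holds the head still, was at 9.06, 9.54 and 9.46 against 8.51 (difference 0.85, SE 0.27, adjusted p = 0.381). Atp5k was at 10.41, 10.36 and 10.75 against 9.58 (difference 0.93, SE 0.24, adjusted p = 0.30), and Atp5l at 10.38, 10.83 and 9.69 against 9.50. These 3 genes were named for the size of their mean differences. None of their MPN values was as low as the control, which also held for 46.8% of all genes. Atp5k and Atp5l both belong to the part that bends the membrane and pairs the enzymes into dimers. Atp5j, coupling factor 6 of the stalk, was at 9.05, 9.44 and 9.51 against 9.46.

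The number of probe sets per gene was not used by the rule. Of the members, 19 (20.2%) had more than 1 probe set, against 5.01% of all genes. Respiratory genes are known for processed pseudogenes, and probe sets that match such near-identical copies can read more than one locus, so values of those 19 genes are uncertain in that respect. The direction differed between probe sets in 2 of them, Cycs and Uqcc2. The median SD among MPN mice was 0.50 over the set, but 0.56 to 0.65 in complexes I, II and III and near the 0.29 of genes above background in complex IV and the ATP synthase. Ndufa1, Ndufb11 and Cox7b are X-linked. Ndufa1 was at 10.57, 10.85 and 10.27 against 10.10 and Ndufb11 at 7.97, 10.72 and 9.59 against 9.24, beside the difference in Xist. The other Ndufb11 probe set, which was less bright, had all 3 MPN arrays above the control. Its difference was 0.50, against 0.19 for the brighter probe set.

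Other mitochondrial gene groups were read in the same way, beside 46.8% of all genes above the control on every MPN array and 21.1% below. The 77 mitochondrial ribosomal protein genes, which translate the few proteins encoded in mitochondria, had a median of 0.02, with 15 above and 18 below. The 17 measured citric acid cycle genes had a median of -0.14, with 0 above and 2 below. The 35 measured assembly factors outside the rule had a median of -0.05 (8 above, 10 below), and the 24 import genes 0.14 (5 above, 3 below). At the adjusted threshold 0 genes of these lists passed. At an unadjusted p under 0.05 the mitochondrial ribosome had 3 genes higher and 5 lower, the outside assembly factors 1 and 1, import 0 and 1, and the citric acid cycle 0 and 0. The same rule took 3.97% of all genes higher and 8.63% lower. Tmem126b, an assembly factor of complex I, was at 4.85, 4.66 and 5.25 against 6.85. Mrpl15 was at 4.70, 4.41 and 5.64 against 6.50, and Mrpl40 at 7.04, 7.44 and 6.80 against 5.87. Tmem126b and Mrpl15 lay below the control on each MPN array and Mrpl40 above it.

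The other genes with the largest differences in these lists follow. Mrpl34 differed by 1.36 (SE 0.57) and Mrpl42 by -2.70 (SE 2.49). In the citric acid cycle, Dld, a shared subunit of the 2-oxoacid dehydrogenases, differed by -1.12 (SE 2.21) and Fh1, fumarase, by -0.78 (SE 0.37), while Idh3g (0.32) and Dlst (0.23) were the highest. The SE of Dld exceeded its difference. Among assembly factors, the copper chaperone Cox17 differed by 0.80 (SE 0.44), Cox20 by 1.13 (SE 0.79) and Sdhaf2, which adds flavin to Sdha, by -0.68. Of the import genes, Timm21 differed by -1.89 (SE 0.64), Tomm70a by -1.29, Tomm5 by 1.17 (SE 1.70) and Timm8a1 by 1.00.

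Regulators of mitochondrial gene expression showed small differences. The 18 regulator genes had a median of 0.21, with 6 above and 1 below the control on every MPN array. Esrra, a nuclear receptor of respiratory genes, was at 6.01, 6.35 and 5.83 against 5.28, and Gabpa, an ETS factor, at 8.38, 9.46 and 9.17 against 8.41. Gabpb1, its partner, differed by -0.28 and Pprc1 by -0.20. The 12 measured genes of mitochondrial DNA maintenance had a median of -0.16, with 2 above and 5 below. Polg2, an accessory subunit of the mitochondrial DNA polymerase, was at 4.85, 5.39 and 6.11 against 6.68, and Mterf3 at 5.54, 3.97 and 5.21 against 6.74. Mgme1 (0.27) and Rnaseh1 (0.19) were the highest of that list. The 17 carrier and uncoupling genes had a median of 0.07 (4 above, 3 below), and Slc25a13, the aspartate and glutamate carrier, was at 4.82, 4.58 and 4.82 against 5.64. Slc25a10 differed by 0.68, Slc25a11 by 0.49 and Mpc1, of the pyruvate carrier, by -0.73. Of the genes in mitochondrial DNA itself, COX2 was at 12.42, 12.36 and 12.41 against 12.44 and ND3 at 12.23, 11.97 and 11.90 against 11.75.

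Beside other widely expressed groups, 59 cytosolic ribosomal protein genes had a median of 0.40, with 43 above and 0 below the control on every MPN array. The 16 measured glycolytic enzyme genes had a median of 0.43, with 10 above and 0 below. For the respiratory genes the same values were 0.22, 41 and 8 of 94. The shares above were 72.9% (ribosomal), 62.5% (glycolytic) and 43.6% (respiratory), against 46.8% of all genes and 36.9% of genes above background. In the same order the shares below were 0%, 0% and 8.51%, against 21.1% and 29.9%. The differences between these groups were not tested.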

How the data were processed

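The authors deposited log2 values made with RMA, per the submitters' processing notes. RMA removes background, gives the arrays one distribution and sums up probes per probe set, which compresses differences near background. No source used here gives its version or the genome build. Of 35556 probe sets, 21789 had 1 gene symbol, 1621 several and 12146 none. Array data have no read depth, and their number limits the precision.

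MPN and control were compared over all 19938 genes by limma 3.58.1 (R 4.3.3). Its two-sided moderated test was adjusted by the Benjamini-Hochberg method. The fit had 2 residual degrees of freedom, all from MPN, and assumed that the control varies likewise. SE is from this fit and SD is that of the 3 MPN arrays. The script was tested on simulated data. Each sample was taken as 1 mouse from its title. Members, lists and tests were chosen with earlier results of these data known. Members were assigned to complexes after their values were seen, as were the glycolytic and cytosolic ribosomal lists.

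Named genes were up to 4 of each direction per complex, isoform pairs, complex II, main catalytic subunits and up to 2 of each direction per other list, where above background. Others are marked in the text. Figures were drawn with matplotlib 3.10.9.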

Additional observations from a re-analysis of the deposited data

Results flagged for a closer look

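Cox7c, a subunit of complex IV, was outside the rule because its 3 probe sets carry a second symbol, Gm12338. All 3 MPN arrays lay above the control on each of them, with log2 differences of 0.35, 0.36 and 0.33. They were looked at because they carry signal that no comparison above used, and the 2 loci cannot be told apart on them.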

How the results depend on the processing

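No member passed limma's adjusted threshold under any of the 12 alternatives run. Over all genes, 95 passed after cyclic loess, 153 with receptor genes aligned and 167 with a trended, robust prior. The median of the 94 genes was reversed with receptor genes aligned (-0.0351), as was complex III (-0.186), and it ran from 0.185 to 0.27 with 1 MPN mouse left out. The 0.185 came without MPN mouse 3, where the median of all genes was 0.221. Complex III was 0.371 after repeated quantile normalisation, 0.318 with subunits only and 0.128 to 0.375 with 1 mouse left out. After cyclic loess complex IV was 0.144 and the ATP synthase 0.186, and with receptor genes aligned 0.0787 and 0.162. The medians of complexes I and II moved by less than the spread between mice, complex I from -0.116 (receptor genes aligned) to 0.255 (repeated quantile normalisation), with 0.0128 against 0.141 as deposited when MPN mouse 3 was left out, and complex II from -0.319 (without MPN mouse 3) to 0.178. Genes at least 2-fold higher on every MPN array numbered 1 with probe sets averaged or arrays at one median over all genes, 0 after cyclic loess or with receptor genes aligned, and 4 to 6 with 1 mouse left out. Those at least 2-fold lower numbered 1 after quantile normalisation or with subunits only, 4 with receptor genes aligned and 2 to 5 with 1 mouse left out. Genes higher on every array numbered 26 of the 94 with receptor genes aligned, where 22.6% of all genes were. With 1 mouse left out they numbered 44 to 51, the 44 without MPN mouse 3, where 56.9% of all genes were. Without MPN mouse 1 or 2 that share was 50.0% and 50.1%. Genes lower numbered 17 with receptor genes aligned, where 38.5% of all genes were, and 3 with subunits only. They numbered 9 to 24 with 1 mouse left out, the 24 without MPN mouse 3, where 25.6% of all genes were. Without MPN mouse 1 or 2 that share was 24.6%. Fewer arrays make such a count easier to reach, and the cause of the other shifts was not tested. No paired analysis was possible because the control carries no replicate number. The single control could not be left out, and array values have no read depth, so that precision is limited by 4 arrays.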
